A study of Mus musculus with 224 samples.

Results

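Interferon-stimulated genes are the genes that cells switch on when they sense an interferon, and 40 of them, listed by symbol, were followed here in 3 tissues of the same mice. A gene was a member when its Ensembl ID mapped to a listed symbol. The list itself was chosen with earlier results of these data known. All 40 were analysed in liver (of 12611 genes) and in visceral adipose tissue (of 16542 genes). In soleus muscle 36 were analysed (of 13637 genes), and Zbp1, Oas1a, Oasl1 and Mx1 were not analysed there. The RNA came from 72 mice, each of which gave all 3 tissues. The mice belonged to 3 inbred strains, C57BL/6J (C57Bl/6J in the labels), DBA/2J (DBA/2JJ in the sample labels) and BALB/cJ. Their food was either regular chow (RC) or a diet high in fat (HFD), and they were sampled on day 5, 13 or 33 of the diet by the sample labels, which made 18 groups of 4 animals in each tissue. All animals were wild-type inbred mice as far as the labels say, with no transgene or drug, and the sources used here give neither age nor sex. The median depth of a library was 2.51e+07 reads for liver, 2.67e+07 for muscle and 2.61e+07 for adipose.

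Interferons signal through receptors on the cell surface to the kinases of the JAK family, which activate transcription factors of the STAT family. With IRF9, STAT2 takes part in a complex that binds a short DNA element, the interferon-stimulated response element, near its target genes. The targets include sensors of viral RNA and DNA, enzymes that block translation or degrade RNA, and IRF7, a factor that drives further interferon production. Interferon-gamma acts in part through IRF1, and its targets include the immunity-related GTPases and the subunits of the immunoproteasome. In liver, hepatocytes, Kupffer cells and endothelial cells can all express such genes.

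Promoter sequence was available for 29 of the 40 members in a RefSeq table of build GRCm38.p6, as windows of 300 bases from 250 before to 50 after the start of the gene. The core of the response element was searched as GAAA, any 2 bases and a further GAAA, on both strands, so that TTTC, any 2 bases and TTTC is a match on the other strand. A match was present in 13 of the 29 members (44.8%), against 1079 of the 27025 genes in the table (3.99%). The core of the STAT site, TTCNNNGAA on both strands, was present in 9 of the 29 members (31.03%) and in 2582 of the genes (9.55%). The windows below belong to the 6 members that had a match to the core of the response element upstream of the start and whose response to the diet in liver differed between strains. Each is written 5′ to 3′ on the strand of its gene, and capitals mark the matches to that core. The windows of Irgm2 and Igtp also hold a match to the STAT core, which is left in lower case.
Ifit1: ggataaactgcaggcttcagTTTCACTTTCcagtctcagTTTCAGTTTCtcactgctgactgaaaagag
Ifit3: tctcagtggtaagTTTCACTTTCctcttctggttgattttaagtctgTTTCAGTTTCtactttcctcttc
Isg15: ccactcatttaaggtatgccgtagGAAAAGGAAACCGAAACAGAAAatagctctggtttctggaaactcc
Rsad2: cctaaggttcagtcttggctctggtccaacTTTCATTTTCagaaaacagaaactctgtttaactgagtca
Irgm2: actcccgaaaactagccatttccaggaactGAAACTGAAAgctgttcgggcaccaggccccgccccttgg
Igtp: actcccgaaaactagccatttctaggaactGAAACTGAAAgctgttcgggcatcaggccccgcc
The Ifit1 window lies on chromosome 19 at chr19:34640765-34640833 (plus strand), 124 to 56 bases before the start. Ifit3 is on the same chromosome at chr19:34583360-34583429 (plus strand). Isg15, at chr4:156200851-156200920 (minus strand), holds 3 overlapping matches. The Rsad2 window is chr12:26456533-26456602 (minus strand) and has 1 match. Irgm2 (chr11:58214883-58214952, plus strand) and Igtp (chr11:58199492-58199555, plus strand) are neighbours whose windows differ at 2 of the 64 bases they share.

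The 3 tissues expressed the members at different levels when reads were counted per length of transcript. In liver the highest were Bst2 (tetherin, which holds budding viruses on the cell surface) at 128 CPM (reads scaled to a common library total) per kilobase, Ifi27 at 63.97 and the GTPase Iigp1 at 51.5. The lowest in liver was Mx1, of the Mx GTPases, at 0.271 CPM per kilobase, with a lowest count of 6 reads in a library. In adipose tissue Ifi27 led with 140 CPM per kilobase, followed by Lgals3bp with 88.2 and Bst2 with 45.7. In muscle the highest was again Ifi27, at 18.9 CPM per kilobase, and Bst2 stood at 7.45. No library of any tissue had 0 reads for a member. Reads of near-identical copies can be split between Ifit3 and Ifit3b, Oas1a and Oas1g, Ifit1 and Ifit1bl1, and between the Ifi27 or Iigp1 families, and Dtx3l overlaps Parp9 as Irgm2 overlaps Igtp.

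Averaged over the 3 days, most members in liver were higher on HFD in C57BL/6J and BALB/cJ and lower in DBA/2J. The days and the ranges of animal numbers differed, as given below. On HFD, 10 of the 40 members rose in C57BL/6J and 0 fell, while in DBA/2J 1 rose and 13 fell. In BALB/cJ 13 rose and 2 fell. The test was limma on log2 CPM with a mean for each group, and a member was called when its Benjamini-Hochberg adjusted p over all genes of the tissue was under 0.05. By the same rule 1.02% of all liver genes rose and 1.28% fell in C57BL/6J, 10.6% rose and 11% fell in DBA/2J, and 7.89% rose and 6.91% fell in BALB/cJ. The median log2 change (HFD minus RC) of the members was 0.30 with 38 of 40 above 0 in C57BL/6J, -0.25 with 9 of 40 above 0 in DBA/2J, and 0.17 with 27 of 40 above 0 in BALB/cJ. The median over all genes lay between 0.00 and 0.01 in the 3 strains. An F test of whether the strains differed in their diet effect was past the threshold for 23 of the 40 members, against 15.7% of all genes. Averaged over strains, 12 members rose and 5 fell, against 10.9% and 10.3% of all genes.

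**Figure D1:**
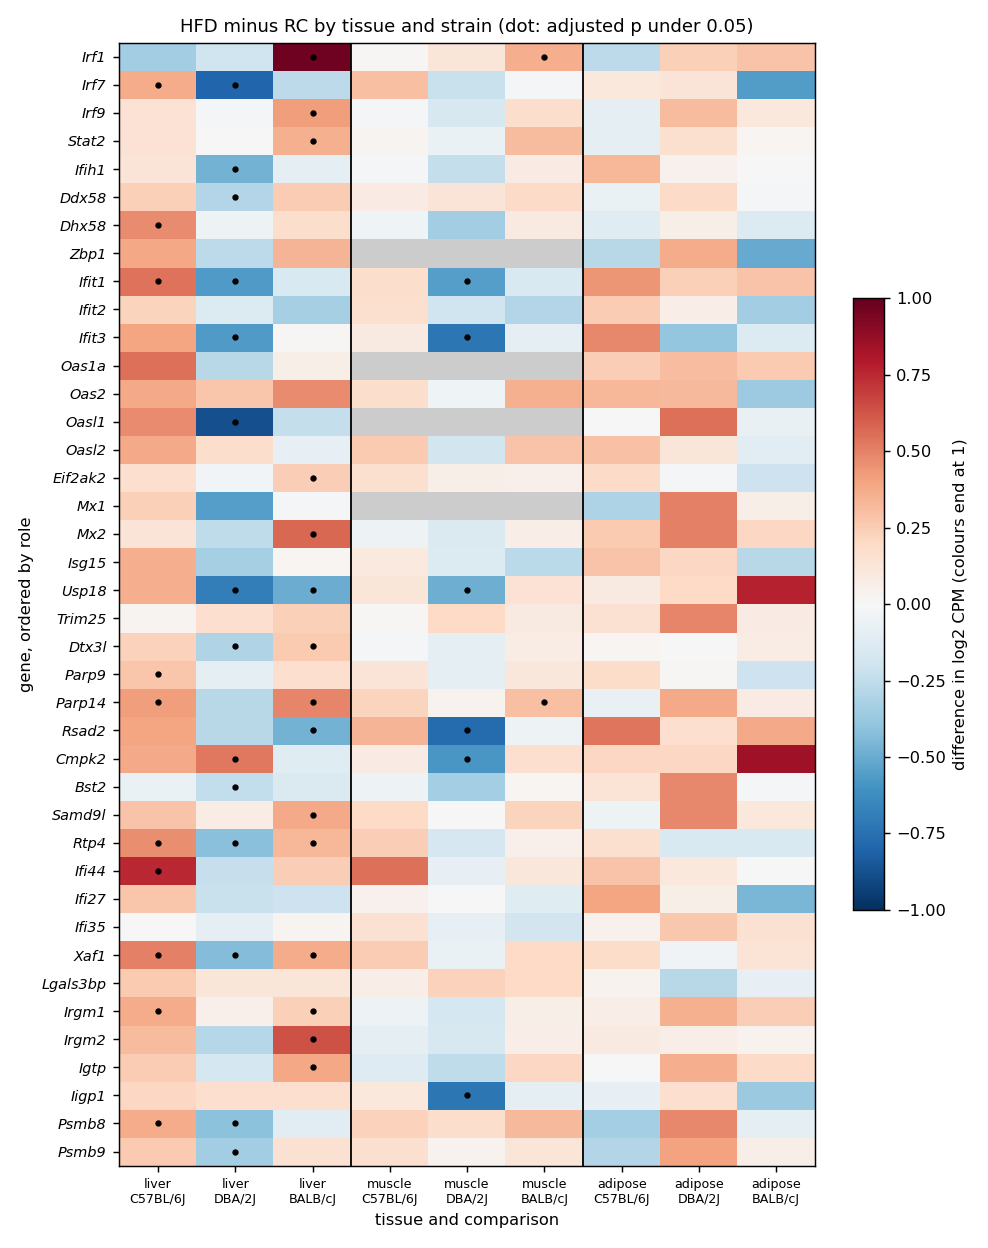
Difference in log2 CPM between HFD and RC for each member (rows, in order of role) in each tissue and strain (columns), with red for higher and blue for lower on HFD, a dot for an adjusted p under 0.05 and grey for genes not analysed. In liver the C57BL/6J column is mostly red with 10 dots and the DBA/2J column mostly blue with 13 dots on blue; no dot appears in adipose tissue.

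Among the transcription factors, Irf7 (ENSMUSG00000025498, chr7:141262706-141266481) showed the smallest p for a difference between strains. In C57BL/6J its lowest, median and highest log2 CPM were 4.26, 4.82 and 5.34 on RC and 4.81, 5.15 and 5.68 on HFD. In DBA/2J they were 4.86, 5.33 and 5.82 on RC and 3.63, 4.51 and 5.32 on HFD, and in BALB/cJ 4.16, 4.46 and 5.07 on RC and 3.71, 4.26 and 4.58 on HFD. The groups of 12 overlapped in every strain, with the HFD animals shifted up in C57BL/6J and down in DBA/2J. The log2 change was 0.37 ± 0.10 (SE, adjusted p = 0.0245) in C57BL/6J and -0.80 ± 0.10 (adjusted p = 8.79e-09) in DBA/2J, and the difference between strains had an adjusted p of 1.77e-07. Irf1, which carries the interferon-gamma signal, was called in BALB/cJ, where it rose by 0.97 ± 0.17 (adjusted p = 5.08e-05), and its difference between strains had an adjusted p of 0.000102. Its BALB/cJ values were 2.10, 3.49 and 4.61 (lowest, median, highest) on RC and 3.22, 4.48 and 5.00 on HFD. Irf9 and Stat2, which bind the response element together, also rose in BALB/cJ, by 0.42 ± 0.08 and 0.36 ± 0.11.

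For each of 3 sensors of viral RNA the diet effect differed between strains, but they were not called in the same strains. Ifih1 (MDA5, ENSMUSG00000026896), which senses long double-stranded RNA, ran from 4.69 through a median of 4.94 to 5.12 log2 CPM in DBA/2J on RC and from 4.001 through 4.36 to 4.98 on HFD. The DBA/2J animals on HFD of days 5 and 33 lay below every animal on RC and those of day 13 overlapped them, and the change was -0.47 ± 0.06 (adjusted p = 7.74e-08). In C57BL/6J the Ifih1 medians were 4.99 on RC and 5.13 on HFD, which was not past the threshold. Ddx58 (RIG-I), the sensor of short triphosphate RNA, fell by 0.29 on the log2 scale in DBA/2J. Dhx58 (LGP2), their regulator, rose by 0.47 ± 0.09 in C57BL/6J (adjusted p = 0.000493) and was -0.05 ± 0.09 in DBA/2J, which was not past the threshold.

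Effectors that block viral RNA followed. Oasl1 (ENSMUSG00000041827), an OAS-like protein that represses translation of Irf7, had a lowest, median and highest log2 CPM of 3.63, 3.84 and 4.23 in DBA/2J on RC and 2.26, 2.92 and 3.75 on HFD. In C57BL/6J the same values were 2.24, 3.09 and 3.97 on RC and 2.82, 3.46 and 4.01 on HFD. DBA/2J on HFD thus spread over the range of C57BL/6J on RC. The DBA/2J change was -0.88 ± 0.14 (adjusted p = 2.44e-06), and the test between strains gave an adjusted p of 1.08e-05. Ifit1 and Ifit3, which bind viral RNA ends and whose promoters are printed above, fell by 0.57 on the log2 scale in DBA/2J, and Ifit1 rose by 0.55 ± 0.15 in C57BL/6J. Usp18, the protease that removes ISG15 and damps the receptor signal, fell by 0.69 on the log2 scale in DBA/2J and by 0.49 in BALB/cJ. Isg15 itself was past the threshold in no single strain, but its difference between strains had an adjusted p of 0.0384. Parp14 rose by 0.42 ± 0.11 in C57BL/6J and by 0.49 ± 0.11 in BALB/cJ, and Parp9 by 0.28 ± 0.06 in C57BL/6J.

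Rtp4 (ENSMUSG00000033355), an inhibitor of viral replication, was 1 of 2 members called in all 3 strains. Its lowest, median and highest log2 CPM went from 2.54, 2.96 and 3.55 on RC to 2.89, 3.39 and 4.23 on HFD in C57BL/6J, and from 3.22, 3.64 and 3.99 to 2.70, 3.18 and 4.03 in DBA/2J. In BALB/cJ they went from 2.70, 3.01 and 4.08 to 2.95, 3.49 and 3.97. The groups overlapped throughout, and the changes were 0.47 ± 0.10, -0.42 ± 0.10 and 0.34 ± 0.10, with an adjusted p of 2.08e-05 for the difference. The other was Xaf1, a pro-apoptotic zinc finger protein, which changed by 0.50 ± 0.12 in C57BL/6J, by -0.43 ± 0.12 in DBA/2J and by 0.37 ± 0.12 in BALB/cJ. Ifi44 had the highest rise in C57BL/6J, 0.75 ± 0.16 (adjusted p = 0.00234), which is 1.68-fold. Of the immunity-related GTPases, Irgm2 rose by 0.64 ± 0.16 and Igtp by 0.38 ± 0.11 in BALB/cJ, and Irgm1 by 0.37 ± 0.08 in C57BL/6J. Psmb8, an immunoproteasome subunit, rose by 0.37 ± 0.09 in C57BL/6J and fell by 0.41 on the log2 scale in DBA/2J, where Psmb9 fell by 0.35. The exception in DBA/2J was Cmpk2, a mitochondrial nucleotide kinase encoded beside Rsad2, which rose by 0.53 ± 0.17 (adjusted p = 0.0168).

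**Figure D2:**
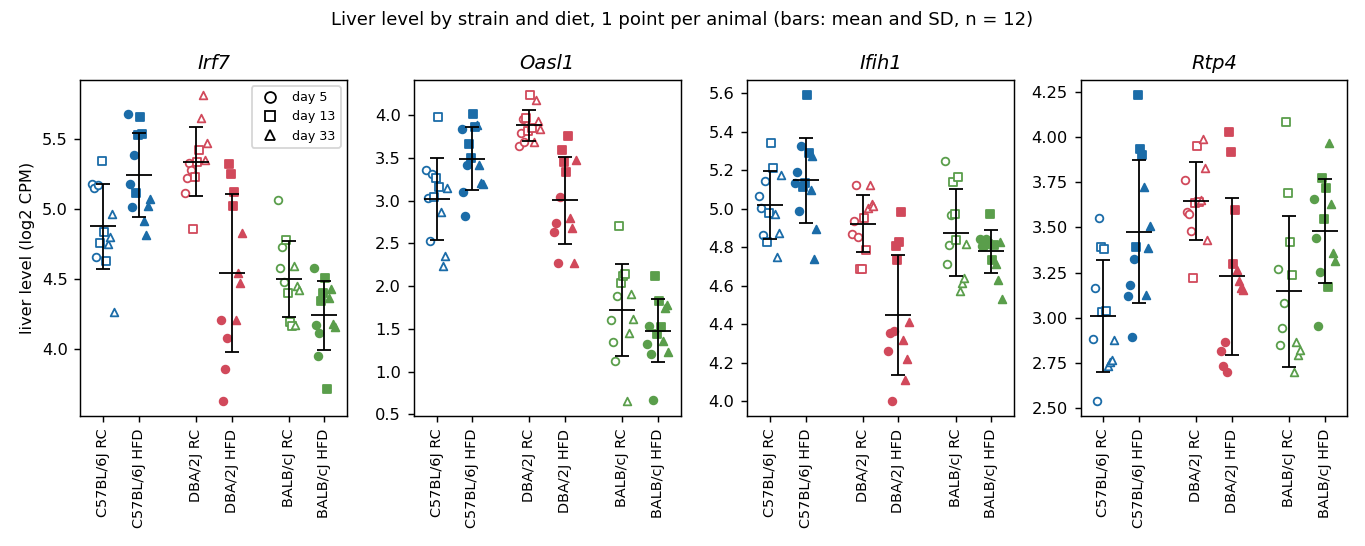
Liver log2 CPM (vertical axis) of Irf7, Oasl1, Ifih1 and Rtp4 in every animal by strain and diet (open symbols RC, filled symbols HFD, shape for the day), with the mean and SD of 12 animals. Irf7 in DBA/2J on HFD runs from 3.63 to 5.32, with the day 13 animals at the top of that range.

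The fall in DBA/2J was not the same on each day. Irf7 in the 4 DBA/2J livers on HFD was 3.63, 3.85, 4.08 and 4.21 log2 CPM on day 5, against 5.11, 5.22, 5.28 and 5.33 on RC. On day 13 it was 5.02, 5.12, 5.25 and 5.32 on HFD, against 4.86, 5.23, 5.34 and 5.42 on RC. On day 33 it was 4.21, 4.47, 4.54 and 4.83, against 5.35, 5.48, 5.65 and 5.82. The diets were thus apart on days 5 and 33 and overlapped on day 13. Over all 40 members the median log2 change in DBA/2J was -0.45 on day 5, 0.18 on day 13 and -0.29 on day 33, whereas in C57BL/6J it was 0.14, 0.37 and 0.38 and in BALB/cJ 0.17, -0.11 and 0.40. Across strains, the diet effect differed between days past the threshold for 3 members (3.35% of all genes): Irf7 (adjusted p = 0.00901), Usp18 (adjusted p = 0.018) and Isg15 (adjusted p = 0.0287). Averaged over strains, Usp18 changed by -0.76 on day 5, 0.27 on day 13 and -0.33 on day 33, and Isg15 by -0.46, 0.34 and 0.17. Animal numbers in the labels fall into 3 ranges that go largely with strain and day. In the lower range, with 16 DBA/2J animals, the members' median was -0.36, and 1 was called higher and 25 lower (24.2% of all genes called). In the middle range, with 6 DBA/2J animals, the median was 0.27 and 0 were called (1.93% of all genes), so in DBA/2J day and number range cannot be told apart. In BALB/cJ the lower range compared the diets on days 5 and 33 and the middle range on day 13. The upper range compared them on days 13 and 33. The BALB/cJ rise also went with the number range, which was thus partly mixed with the day. Its 10 animals of the lower range had a median of 0.41 with 18 members called higher and 2 lower (23.2% of all genes called). The 4 of the middle range had a median of -0.09 and the 8 of the upper range one of 0.03, with 0 members called in each (0.0952% and 0.848% of all genes). With the number range as a covariate, 14 members were called in DBA/2J, 13 of them lower. This is no check on the fall in DBA/2J. All its animals of days 5 and 33 were of the lower range on both diets, so the covariate could change only the day 13 part.

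The summed level of 9 macrophage markers ran from 84.1 to 549 CPM over all livers, with RC and HFD medians of 191 and 205 for C57BL/6J, 165 and 174 for DBA/2J, and 175 and 149 for BALB/cJ. No macrophage marker was called for the diet in any strain. With that summed level as a covariate, chosen after seeing the data, the members called were 10 for C57BL/6J, 15 for DBA/2J and 13 for BALB/cJ. The shares of all genes called with that covariate are not given here. Of the T cell markers only Cd4 was analysed in liver, and it fell in DBA/2J from a median of 5.78 CPM on RC to 2.03 on HFD. Of 5 erythroid markers 2 fell in DBA/2J, with a summed median of 458 CPM on RC and 342 on HFD. The 4 adipocyte markers analysed there had a summed median of 9.06 CPM on RC and 2.90 on HFD, with 0 called. The part of these cell types in the result was not tested. In bulk tissue, fewer cells of a type and less RNA per cell cannot be told apart. Single animals decided some calls. When each animal was left out in turn, 3 of the 10 calls in C57BL/6J were lost in at least 1 fit (Irf7, Ifit1 and Parp14), as were 3 of the 14 in DBA/2J (Ddx58, Bst2 and Psmb9). In BALB/cJ 7 of the 15 were (Stat2, Eif2ak2, Usp18, Dtx3l, Rsad2, Xaf1 and Irgm1), so that Xaf1 was not called there in 11 of 72 fits. The count in BALB/cJ moved most: without the HFD day 5 animal 3HF203 there were 8, and without 3HF228 (HFD, day 13), 3RC203 (RC, day 5) or 3RC209 (RC, day 33) there were 9 each.

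Other genes of the pathway in liver were counted in the same way. The 9 listed interferon genes were not analysed here in any tissue. Of 5 receptor genes, 3 rose and 0 fell averaged over strains, against 10.9% and 10.3% of all genes. Among the 3 was Ifngr1, a chain of the interferon-gamma receptor, which rose by 0.21 ± 0.05 (adjusted p = 0.00052 in limma). Of 8 kinases and IRF factors that drive interferon induction, 3 fell in DBA/2J, where Irf5 fell by 0.97 on the log2 scale, and Irf2 and Ikbke were the others. Of 34 further interferon-stimulated genes, 2 rose and 0 fell in C57BL/6J, 2 rose and 7 fell in DBA/2J, and 4 rose and 2 fell in BALB/cJ. These shares stand beside 1.02% and 1.28% of all genes in C57BL/6J, 10.6% and 11% for DBA/2J, and 7.89% and 6.91% for BALB/cJ, as given above. The diet effect differed between strains for 13 of these 34 (15.7% of all genes), among them Ifitm3, which blocks viral entry and fell by 0.54 on the log2 scale in DBA/2J. Trim21, an antibody receptor in the cytosol, rose by 0.65 ± 0.12 in BALB/cJ.

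On chow the strains already differed in liver. Between DBA/2J and C57BL/6J, 19 members were higher in DBA/2J and 4 lower, against 23.9% and 24.2% of all genes, with a median difference of 0.28. Between BALB/cJ and C57BL/6J, 4 were higher and 14 lower in BALB/cJ (22.9% and 23.9% of all genes, median -0.16). Between BALB/cJ and DBA/2J, 3 were higher and 24 lower in BALB/cJ (20.6% and 21.5% of all genes, median -0.47). These comparisons share the RC animals with the diet comparisons and with each other, so the higher chow level in DBA/2J and its fall on HFD are not independent. The build used for mapping, GRCm38, is that of C57BL/6J, and the part of sequence differences in the strain differences was not tested.

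Xaf1 (ENSMUSG00000040483, chr11:72301629-72313733) stood apart most. Its liver values on RC were 1.40, 1.75 and 2.38 log2 CPM (lowest, median, highest) in C57BL/6J and 3.85, 4.10 and 4.33 in DBA/2J. Those of BALB/cJ were 0.75, 1.45 and 2.57. No DBA/2J animal overlapped either other strain, and the difference from C57BL/6J was 2.32 ± 0.12 (adjusted p = 1.70e-24). Igtp was 4.12, 4.62 and 4.76 in C57BL/6J and 5.50, 5.78 and 5.97 in DBA/2J, again without overlap and with a difference of 1.19 ± 0.11. Psmb8 and Psmb9 were likewise higher in DBA/2J in every animal, by 0.87 ± 0.09 and 1.04 ± 0.12. Those 4 members made up the 4 of 40 whose animals did not overlap between DBA/2J and C57BL/6J, against 8.78% of all genes. For BALB/cJ against DBA/2J 4 of 40 did not overlap (5.52% of all genes), and against C57BL/6J 0 did so (6.3%). Samd9l, a restriction factor for poxviruses, was lower than in C57BL/6J in both other strains, with differences of -0.77 ± 0.10 for DBA/2J and -0.79 ± 0.10 for BALB/cJ. Oasl1 in BALB/cJ differed from DBA/2J by -2.16 ± 0.14 and from C57BL/6J by -1.31 ± 0.14.

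The level on RC also differed between days for 15 members in liver (10.4% of all genes). The smallest p belonged to Oas2, which makes the activator of RNase L, with 1.25 ± 0.57, 1.56 ± 0.73 and 0.99 ± 0.50 log2 CPM (SD, n = 4) on days 5, 13 and 33 for C57BL/6J. The values were 0.19 ± 0.44, 1.23 ± 0.58 and 0.61 ± 0.33 for DBA/2J and 0.02 ± 0.30, 1.59 ± 0.21 and 0.68 ± 0.27 for BALB/cJ. Day 13 had the highest mean in all 3 strains, by least in C57BL/6J, and over the strains it exceeded day 5 by 0.97 ± 0.20 (adjusted p = 0.00071, limma). With the number range as a covariate 6 members were called in place of 15.

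In muscle the diet called fewer members, and in DBA/2J again downward. There 0 rose and 6 fell (5.28% and 3.45% of all genes), and in BALB/cJ 2 rose and 0 fell (6.26% and 5.26%). In C57BL/6J 0 were called (5.75% of all genes), with 5 of 36 at an unadjusted p under 0.05 in limma and 0 called with limma voom on the recovered reads. Rsad2 (viperin, ENSMUSG00000020641), which makes a chain-terminating nucleotide, was 0.89, 1.62 and 2.30 log2 CPM (lowest, median, highest) in DBA/2J on RC and 0.51, 0.82 and 1.66 on HFD. In C57BL/6J it was 1.98, 2.70 and 3.23 on RC and 2.38, 2.80 and 3.97 on HFD. The groups overlapped, and the DBA/2J change was -0.77 ± 0.17 (adjusted p = 0.00163). The other 5 in DBA/2J were Ifit3 (-0.72 ± 0.17), Iigp1 (-0.72 ± 0.20), Cmpk2 (-0.58 ± 0.16), Ifit1 (-0.55 ± 0.16) and Usp18 (-0.49 ± 0.15). Ifit1, Ifit3 and Usp18 thus fell in DBA/2J in both liver and muscle, while Cmpk2 fell in muscle and rose in liver. The muscle calls of Ifit1 and Usp18 were each lost in some fits with 1 animal left out. In DBA/2J muscle the members' median was -0.17 in the lower number range, with 0 called higher and 3 lower (336 of 13637 genes called). In the middle range it was 0.06, with 1 called higher and 0 lower (848 genes). By day it was -0.23, -0.05 and -0.13 on days 5, 13 and 33. As in liver, day and number range cannot be told apart in DBA/2J. The diet effect differed between strains for 4 members, against 9.83% of all genes: Rsad2 (adjusted p = 0.00416), Cmpk2 (adjusted p = 0.029), Ifit3 (adjusted p = 0.0379) and Usp18 (adjusted p = 0.0474). Leaving out each animal in turn gave 1 to 6 such members. It differed between days for 0 (0.99% of all genes), with 5 at an unadjusted p under 0.05 in limma and 0 with limma voom.

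Few members rose on HFD in muscle, in shares near those of all genes, and in BALB/cJ some B and T cell markers also rose. Whether members and markers rose in the same animals was not tested. Irf1 rose by 0.37 ± 0.08 (adjusted p = 0.00204) in BALB/cJ, from 3.15, 3.49 and 3.92 log2 CPM (lowest, median, highest) on RC to 3.33, 3.94 and 4.50 on HFD, with overlap. Parp14, an ADP-ribose transferase, rose there by 0.30 ± 0.10 (adjusted p = 0.0319). Averaged over strains 3 rose and 0 fell (8.98% and 8.39% of all genes), namely Irf1, Parp14 and Psmb8, by 0.17 ± 0.05, 0.19 ± 0.06 and 0.24 ± 0.08. The Psmb8 call was lost in 6 of 72 fits with 1 animal left out. Its highest muscle value, 4.08 log2 CPM, was that of 3HF259 (BALB/cJ, HFD, day 33), with 2.77 next in that group. In BALB/cJ 5 of 8 B cell markers and 1 of 7 T cell markers rose too, and the summed B cell markers went from 0.758, 1.59 and 23.9 CPM (lowest, median, highest) on RC to 1.71, 10.4 and 78.0 on HFD, while 0 of 9 macrophage markers were called. With the summed B and T cell markers as a covariate, chosen after seeing the data, 1 member was called over all strains, 1 in BALB/cJ and 6 in DBA/2J. Leaving out 1RC226 raised the 3 calls over all strains to 6, leaving out 2HF201, 2RC231 or 3RC201 raised them to 5, and each of 8 BALB/cJ animals left out lowered the BALB/cJ calls to 1 (the first digit of a name is 1 for C57BL/6J, 2 for DBA/2J and 3 for BALB/cJ). On RC, Oasl2 alone differed between days in muscle (7.85% of all genes, adjusted p = 0.0457), and 0 did with limma voom.

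On chow the strain order in muscle was not that of liver. Against C57BL/6J, DBA/2J had 3 members higher and 16 lower (17.6% and 19.4% of all genes, median -0.24), where liver had 19 higher and 4 lower. BALB/cJ against C57BL/6J had 3 higher and 12 lower (21.2% and 23.3%, median -0.11), and BALB/cJ against DBA/2J 11 higher and 5 lower (19.8% and 20.6%, median 0.16). Xaf1 kept its liver pattern, with 1.22, 1.75 and 2.31 log2 CPM in C57BL/6J, 3.25, 3.56 and 4.11 for DBA/2J and 1.27, 1.93 and 2.46 for BALB/cJ. Irgm2 (ENSMUSG00000069874) did not: it was 3.63, 3.98 and 4.47 in C57BL/6J, 2.34, 2.86 and 3.26 for DBA/2J and 2.33, 2.71 and 3.15 for BALB/cJ. The DBA/2J minus C57BL/6J difference of Irgm2 was 0.46 ± 0.16 in liver and -1.16 ± 0.10 in muscle, the latter with no overlap. The animals did not overlap for 2 of 36 members between DBA/2J and C57BL/6J (5.11% of all genes). The same held for 2 members with BALB/cJ set against C57BL/6J (4.99%) and for 1 with it set against DBA/2J (4.9%). Eif2ak2 (PKR), a kinase that stops translation, was 0.69 ± 0.09 higher in BALB/cJ than in each of the other strains. The difference of a strain effect between tissues was not tested.

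**Figure D3:**
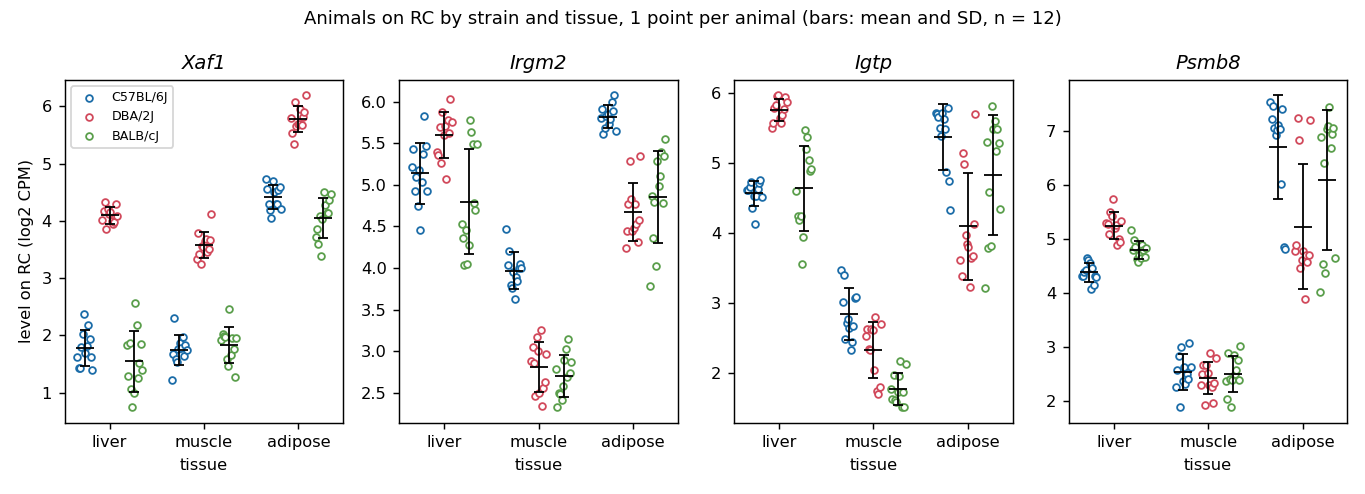
Log2 CPM on RC (vertical axis) of Xaf1, Irgm2, Igtp and Psmb8 in liver, muscle and adipose tissue (horizontal axis), 1 point per animal coloured by strain, with the mean and SD of 12 animals. Xaf1 is highest in DBA/2J in all 3 tissues, whereas Irgm2 in DBA/2J lies above C57BL/6J in liver and below it in muscle and adipose tissue.

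Adipose libraries fell apart by their immune cell markers before any diet comparison. The summed level of 16 B and T cell markers was 9.91 to 12.04 log2 CPM in 40 libraries and 3.74 to 7.25 in 32, with none between. Of the 12 RC libraries of each strain, 10 of C57BL/6J were high, 3 of DBA/2J and 8 of BALB/cJ, and of the 12 HFD libraries 8, 4 and 7. Each strain and diet thus held libraries of both kinds. The dividing line was set after seeing the values. Among the 32 low libraries, 2, both BALB/cJ on HFD (3HF201 of day 5 and 3HF208 of day 33), held only 25.9 and 41.4 CPM of the 5 adipocyte markers together, while the others held at least 2195. Hepatocyte markers were high in every liver library (at least 69552 CPM), as were muscle fibre markers in every muscle library (at least 51934 CPM). Hepatocyte markers were also read outside liver, with a summed median of 1503 and a highest value of 16500 CPM in adipose libraries. In muscle these values were 114 and 7399 CPM. On RC the adipose medians were 744 CPM for DBA/2J, 1388 for C57BL/6J and 4081 for BALB/cJ. The part of this signal in the strain differences of adipose tissue and muscle was not tested.

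In adipose tissue no member was called for the diet. The count was 0 averaged over strains (2.67% of all genes) and 0 within each strain (0.115% of all genes in C57BL/6J, 0.411% in DBA/2J, 0.435% in BALB/cJ), with 7, 2, 3 and 2 members at an unadjusted p under 0.05 in limma, and limma voom also called 0. The nearest was Cmpk2 in BALB/cJ, with 2.37, 2.70 and 3.41 log2 CPM (lowest, median, highest) on RC and 2.45, 3.19 and 6.26 on HFD, a change of 0.85 ± 0.24 (adjusted p = 0.0654). Its groups overlapped, and the spread on HFD was wider. The value of 6.26 was that of 3HF208 (day 33), a library low in adipocyte markers, and the next highest in that group was 3.19. The diet effect differed neither between strains (0 members, 0.0846% of all genes) nor between days (0 members, 0% of all genes), with 0 members at an unadjusted p under 0.05 in both and 0 called with limma voom. On RC 0 members differed between days (0.0242% of all genes), with 2 at an unadjusted p under 0.05 and 0 with limma voom. With the summed B and T cell markers as a covariate, 5 members were called higher over all strains, 1 in DBA/2J and 2 in BALB/cJ. With the macrophage markers as a covariate, chosen after seeing the data, 11 rose and 1 fell over all strains. The shares of all genes called with these covariates are not given here, so these counts have no background to stand beside. Within the lower number range, 2 members were called higher and 10 lower in the 10 BALB/cJ animals (36.9% of all genes called), which include both libraries low in adipocyte markers. Over all strains in that range 1 was called higher and 2 lower (8.28% of all genes).

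The strains differed in adipose tissue on chow, and so did their B and T cell markers. Against C57BL/6J, DBA/2J had 2 members higher and 25 lower (21.2% and 20.5% of all genes), with a median of -0.81, and all 8 B cell and all 8 T cell markers were lower too. Within the 13 RC libraries of high marker level 1 member was higher and 4 were lower (10.9% of all genes called), and within the 11 of low level 1 was higher and 4 were lower (4.72%). The fits within a class had a mean for each strain and diet but not for each day, and only 2 low RC libraries were C57BL/6J. With the marker level as a covariate 14 members were called in place of 27, and 10 with the number range. Xaf1 and Irgm2 were called in both classes. Xaf1 was 4.06, 4.40 and 4.73 log2 CPM in C57BL/6J and 5.34, 5.74 and 6.19 in DBA/2J, a difference of 1.37 ± 0.16 (1.45 ± 0.19 among high and 1.35 ± 0.31 among low libraries). Irgm2 was 5.61, 5.81 and 6.08 in C57BL/6J and 4.24, 4.56 and 5.34 in DBA/2J, a difference of -1.15 ± 0.18 (-0.67 ± 0.15 and -1.34 ± 0.35). Psmb8, which was higher in DBA/2J in liver, ran from 3.89 through a median of 4.74 to 7.23 in DBA/2J and from 4.81 through 7.04 to 7.53 in C57BL/6J, and was called in neither class.

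**Figure D4:**
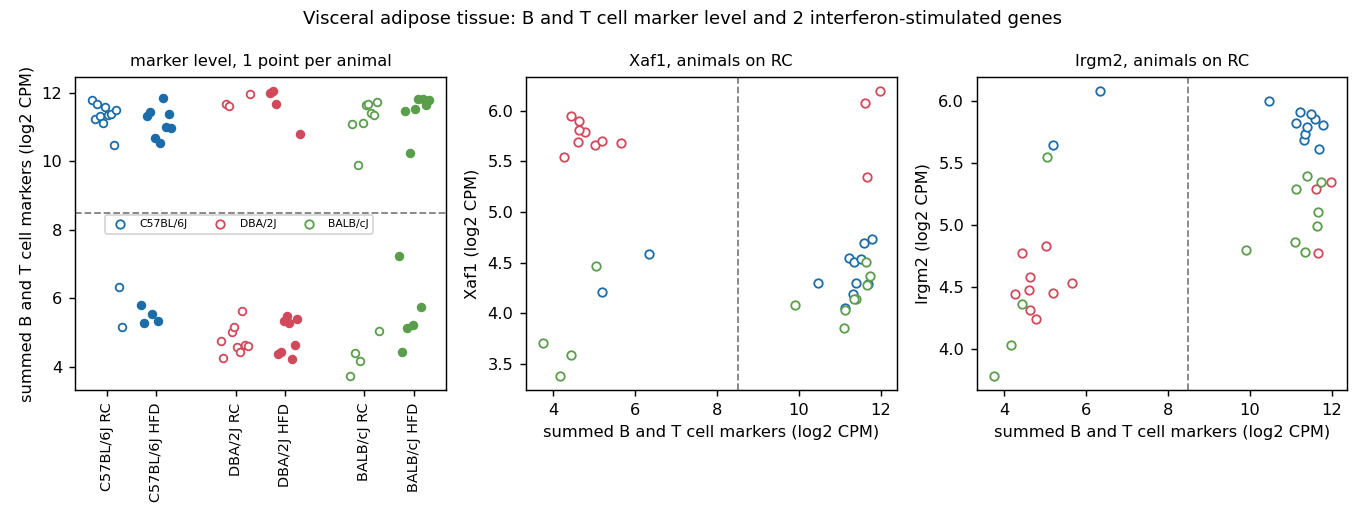
Visceral adipose tissue: summed B and T cell markers in log2 CPM by strain and diet (left, open RC, filled HFD), and Xaf1 (middle) and Irgm2 (right) in log2 CPM against that sum in the animals on RC, coloured by strain, with a dashed line at 8.5. The 40 high and 32 low libraries leave a gap, and Xaf1 is highest in DBA/2J on both sides of it.

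The other adipose strain comparisons gave fewer calls. BALB/cJ against C57BL/6J had 0 higher and 7 lower (6.42% and 4.82% of all genes, median -0.49): Ifit3 by -1.46 ± 0.28, Oasl2 by -1.29 ± 0.26, Rsad2 by -1.12 ± 0.25, Ifit1 by -1.08 ± 0.26, Irgm2 by -0.96 ± 0.18, Cmpk2 by -0.83 ± 0.24 and Oas1a by -0.65 ± 0.19. Ifit3 and Ifit1 were also lower in BALB/cJ than in C57BL/6J in liver and muscle. BALB/cJ against DBA/2J had 5 higher and 3 lower (7.33% and 8.92%, median 0.35), with Usp18 highest at 1.37 ± 0.40 and Xaf1 lowest at -1.73 ± 0.16. These strains also differed in marker level, with 8 of 12 and 3 of 12 RC libraries high. Within the high libraries the members' median was 0.04 with 21 of 40 above 0, and within the low ones it was 0.15 with 28 of 40. Without the 2 libraries low in adipocyte markers, the counts were 34 for DBA/2J against C57BL/6J, 12 for BALB/cJ against C57BL/6J and 13 for BALB/cJ against DBA/2J. Both libraries (3HF201 and 3HF208) were on HFD, so they enter these RC comparisons only through the spread shared by all groups. Without the DBA/2J RC day 13 animal 2RC231 the last comparison had 16, and without the BALB/cJ HFD day 33 animal 3HF208, BALB/cJ against C57BL/6J had 11. Animals did not overlap for 3 members between DBA/2J and C57BL/6J (Xaf1, Irgm2 and Ifit1, 2.22% of all genes). With BALB/cJ set against C57BL/6J this was 1 member (1.91%), and against DBA/2J also 1 (1.25%).

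**Figure D5:**
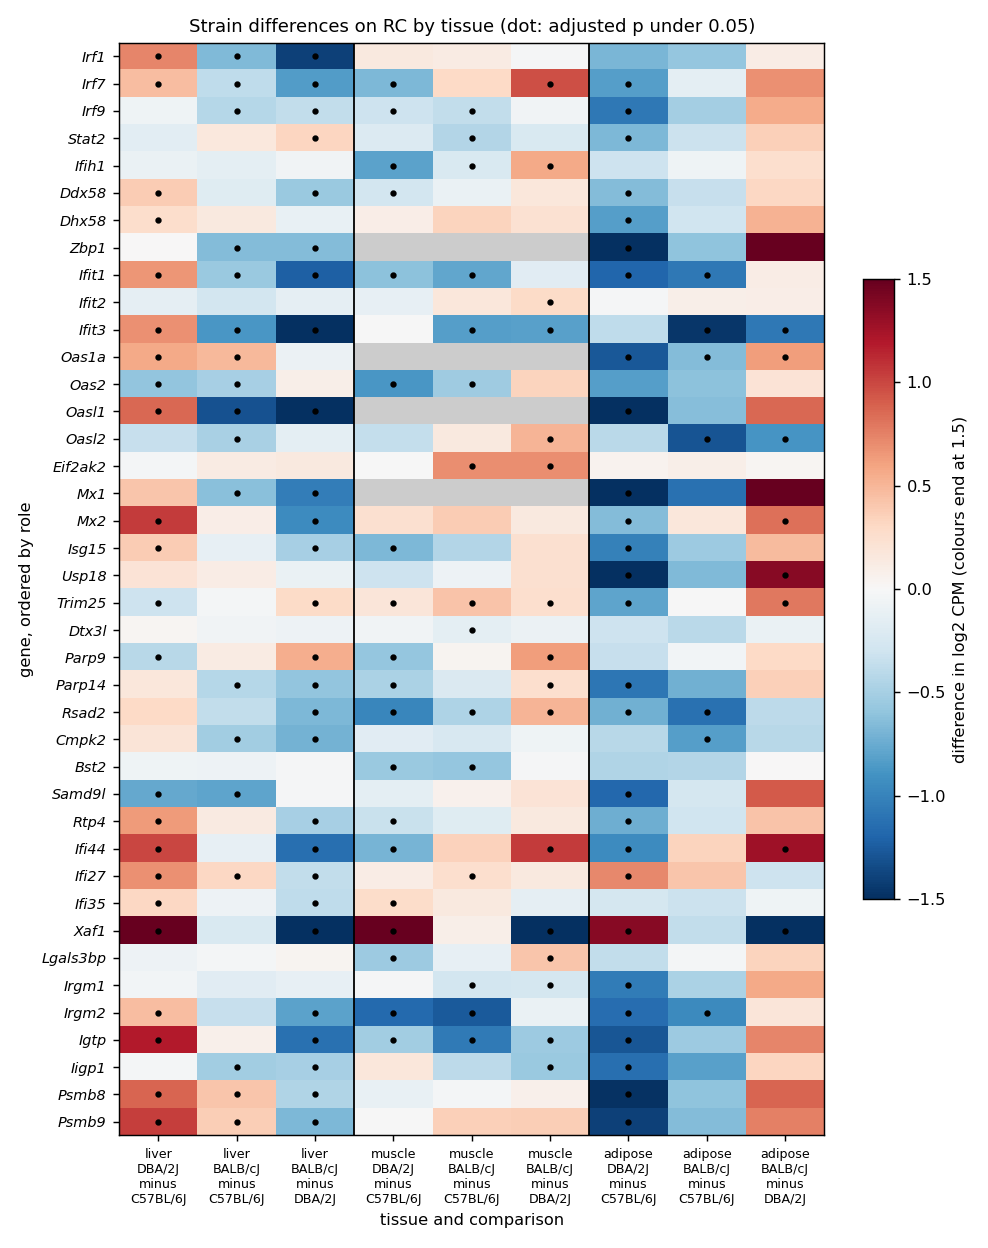
Difference in log2 CPM between strains on RC for each member (rows, in order of role) by tissue and pair of strains (columns), red for higher in the first strain and blue for lower, a dot for an adjusted p under 0.05 and grey for genes not analysed. DBA/2J minus C57BL/6J is mostly red in liver (19 higher, 4 lower) and mostly blue in muscle and adipose tissue, with Xaf1 red in all 3.

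Because each mouse gave all 3 tissues, the deviation of each animal from its group mean was compared between tissues. Between liver and muscle Pearson's r was above 0 for 31 of 36 members with a median of 0.17, against a median of 0.04 and 59.96% above 0 over all 11554 genes measured in both. Ifi44 had r = 0.50 (permutation p = 0.00024) and Spearman's rho = 0.44 (permutation p = 0.00058) over 72 animals, and 0.831% of all genes had an r as high. Oas2 had r = 0.42 (permutation p = 0.00043) and rho = 0.47 (permutation p = 0.00024), with 1.83% of all genes as high. These were 2 of 112 correlations, and their Benjamini-Hochberg adjusted p over the 112 was 0.0241 each. Leaving out the 2 animals farthest from the liver median gave r = 0.40 and 0.39, with adjusted p of 0.0955 and 0.0679. Between muscle and adipose tissue Rsad2 had r = 0.44 (permutation p = 0.00106, adjusted p = 0.0396) and rho = 0.42 (adjusted p = 0.0504). Between liver and adipose tissue 20 of 40 members were above 0, with a median of 0.00.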

How the data were processed

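Stranded mRNA libraries were sequenced as single reads, per the labels' protocols. Per the submitters' processing notes, STAR 2.5.3a, edgeR and GRCm38 were used. The deposited values are log2 CPM, 1 table per tissue, normalized by the authors, and whole reads could be recovered from them. 216 libraries of the 224 samples were used (8 repeat liver libraries of 4 animals were not analysed here). Ensembl IDs were matched to symbols with a gene table. Genes at a log2 CPM of at least 0 in 4 or more animals were tested with limma 3.58.1 (R 4.3.3) with a trend, a mean for each of 18 groups and Benjamini-Hochberg adjustment over all genes of a tissue. Errors are SE of the fit unless SD is named, and p-values measure the spread between the labelled animals. Code was tested on simulated data, and figures used matplotlib 3.10.9. The members and lists were chosen with earlier results of these data known. Any member could be named: those past the threshold, or the highest and lowest, with ranges for those of smallest p, and pathway genes of smallest p. The alternatives were other normalizations, filters, covariates, library subsets, voom weights and leaving out each animal. The planned count model in edgeR was not run, and limma voom on the recovered reads was used in its place.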

Additional observations from a re-analysis of the deposited data

Results flagged for a closer look

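The diet effect in liver differed between strains, by an F test in limma, for 23 of 40 members (15.7% of all genes). The 4 with the smallest adjusted p were Irf7 (1.77e-07), Oasl1 (1.08e-05), Ifih1 (1.46e-05) and Rtp4 (2.08e-05). In liver the effect also differed between days for 3 members (3.35% of all genes). In muscle it differed between strains for 4 of 36 members, a share near that of all genes (9.83%), and for 1 to 6 when each animal was left out: Rsad2 (adjusted p = 0.00416), Cmpk2 (adjusted p = 0.029), Ifit3 (adjusted p = 0.0379) and Usp18 (adjusted p = 0.0474).

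In 3 liver groups of 4 animals, 1 animal lay far from the other 3. Irf7 in C57BL/6J on RC on day 5 had a lowest value of 4.66 log2 CPM. Ifih1 in DBA/2J on RC on day 33 had a highest value of 5.12, and Oasl1 in BALB/cJ on RC on day 13 had a highest value of 2.70. Chance puts about 1 in 20 groups past this limit. Over all members it was passed in 35 of 720 groups in liver (4.86%), 43 of 648 in muscle (6.64%) and 88 of 720 in adipose tissue (12.2%).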

How the results depend on the processing

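Counts below are members called by limma, and no called member change or count reversed its direction in the fits of a whole table. Within single number ranges the members' median for the diet did turn, in these cases among others. In the middle range it was 0.27 in DBA/2J liver (30 of 40 above 0). In that range it was 0.06 in DBA/2J muscle (24 of 36 above 0) and -0.15 in DBA/2J adipose tissue. In C57BL/6J adipose tissue it was -0.70 in the lower range of 3 animals. Keeping only genes whose mean reached the median of all genes left 20 members for liver, 7 for muscle and 25 for adipose tissue. This called in liver 11 for the diet over all strains, 5 in C57BL/6J, 6 in DBA/2J, 11 for the difference between strains, 1 between days, 10, 7 and 14 for DBA/2J against C57BL/6J, BALB/cJ against C57BL/6J and BALB/cJ against DBA/2J on RC, and 6 between days on RC. In muscle it called 1 for the diet over all strains, 0 in DBA/2J, 1 in BALB/cJ, 0 between strains, 4 in each comparison of strains on RC and 0 between days on RC, and in adipose tissue 15, 2 and 3 between strains on RC. Fewer members were tested there. The number range as a covariate gave 6 between days in liver for the diet and 6 on RC, 1 in BALB/cJ, 2 between strains and 0 between days on RC in muscle, and 1 for the BALB/cJ diet and 10 for DBA/2J against C57BL/6J in adipose tissue. Quantile normalization gave 5 for the diet over all strains and 1 in C57BL/6J in muscle, 1 correlation between liver and muscle and 0 between muscle and adipose tissue. The macrophage covariate gave 5 over all strains in muscle, and in adipose tissue 12 over all strains, 1 in DBA/2J, 2 in BALB/cJ and 15 for DBA/2J against C57BL/6J. The B and T cell covariate gave 1 over all strains and 1 in BALB/cJ in muscle, and in adipose tissue 5, 1 in DBA/2J, 2 in BALB/cJ and 14. Voom weights gave 0 between days on RC in muscle. Shares of all genes are not given for these alternatives, and the causes of these changes were not tested.

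Adipose libraries of low marker level alone gave 1 for the diet over all strains and 2 in BALB/cJ. On RC the high libraries gave 5, 11 and 2 and the low ones 5, 2 and 5 for DBA/2J against C57BL/6J, BALB/cJ against C57BL/6J and BALB/cJ against DBA/2J. Without the libraries low in adipocyte markers, which were on HFD and enter only through the shared spread, the last 2 comparisons gave 12 and 13. Leaving out the 2 farthest animals, or keeping animals of low marker level, left 0 correlations called between liver and muscle and 0 between muscle and adipose tissue, and Spearman's rho gave 0 for the latter. The macrophage, adipocyte and voom alternatives, the muscle B and T cell covariate and the marker classes were chosen after seeing the data.

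Leaving out each animal gave, in liver, 13 to 18 for the diet over all strains, 7 to 12 in C57BL/6J, 11 to 16 in DBA/2J, 8 to 18 in BALB/cJ, 22 to 25 between strains, 2 to 4 between days, 22 to 24, 16 to 22 and 26 to 27 for the strain comparisons on RC and 8 to 18 between days on RC. In muscle the ranges were 2 to 6, 0 to 1, 4 to 7, 1 to 3, 1 to 6, 0 to 0, 18 to 20, 13 to 18, 14 to 18 and 0 to 3 in the same order. In adipose tissue they were 0 to 1 over all strains, 0 to 0 in C57BL/6J, 0 to 1 in DBA/2J, 0 to 1 in BALB/cJ, 0 between strains and between days, 25 to 31, 7 to 11 and 7 to 16 between strains on RC and 0 between days on RC. For days on RC in liver, leaving out 1RC252 gave 9, and 2RC230 or 3RC228 gave 8, all of day 13. For the diet in muscle over all strains, leaving out 1RC226 gave 6, and 2HF201, 2RC231 or 3RC201 gave 5.

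Same-numbered animals did not pair: their deviations correlated with a median over 20 pairs of 0.13 (liver), 0.00217 (muscle) and -0.36 (adipose tissue). With the number as a replicate block 17 members were called for the diet over all strains for liver, 3 for muscle and 0 for adipose tissue, and no count moved by over 1.5 times. The reads in a library limit low genes most, such as Mx1 in liver with 6 to 63 reads.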
